A study of Mus musculus with 42 samples.

Results

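Sdhaf4 encodes an assembly factor of succinate dehydrogenase. The genes described here are the 4 assembly factor genes Sdhaf1 to Sdhaf4 and the 4 enzyme subunit genes Sdha, Sdhb, Sdhc and Sdhd. They were taken by symbol, as 8 of 55401 genes measured in 42 libraries. The set was selected on the TPM of Sdhaf4, which was higher after RECTAS, and the other genes were added as parts of the same enzyme. The difference between RECTAS and DMSO is therefore given for these 8 genes as a description, with no test. DMSO values of Sdhaf4 entered the choice only as the vehicle side of that contrast. Differences in DMSO level between the lines were not used in it, and they were tested.

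Polyadenylated RNA was sequenced from 7 mouse cancer cell lines kept for 6 h with 10 µM RECTAS in 0.1% DMSO or with the vehicle, 0.1% DMSO. RECTAS, a synthetic compound that modulates splicing, acts through the CLK kinases and SRSF6, a splicing factor. The lines were B16 from melanoma, CT26 and MC38 from colon carcinoma, EG7 from lymphoma, LLC from lung carcinoma, Pan02 from pancreatic carcinoma and WEHI3 from myelomonocytic leukaemia. Each of the 14 groups held 3 libraries. No further genotype, clone or passage is given by the labels, and every control carried the vehicle. The labels do not state that the 3 libraries of a group were separate cultures, and each p-value is therefore set against the spread of these samples alone, which may be technical.

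Succinate dehydrogenase is complex II of the respiratory chain and at the same time an enzyme of the citric acid cycle. It oxidises succinate to fumarate and passes the electrons to ubiquinone in the inner mitochondrial membrane. SDHA is the catalytic subunit with a bound FAD, SDHB carries iron-sulphur clusters, and SDHC and SDHD anchor the enzyme in the membrane and bind haem. Work in yeast, fly and human cells has shown that SDHAF2 promotes the attachment of FAD to SDHA and that SDHAF4 holds the flavinated SDHA before it joins SDHB. In the same work SDHAF1 and SDHAF3 acted on the maturation of SDHB.

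Values were deposited as TPM, which are scaled to the same sum in every library, corrected for gene length and can be compared between genes. The values of each library summed to between 999998.4 and 1000002.7, with 11001 to 12205 genes at 1 TPM or more. Because TPM hold no counts of reads, sequencing depth is unknown and counting error could not be computed. Replicates of a group correlated across genes at 0.995 to 0.997 on log2(TPM + 1). In DMSO, 7 of 7 melanocyte markers reached 1 TPM in B16, 6 of 8 T lymphoid markers in EG7 and 7 of 8 myelomonocytic markers in WEHI3. WEHI3 also had 2 of 8 T lymphoid markers at 1 TPM or more, and its T lymphoid markers summed to 2200.0 TPM, against 1592 TPM in EG7 and 1863 TPM for its own myelomonocytic markers. Of 8 epithelial markers, 5 reached 1 TPM in Pan02, 2 in LLC and 0 in CT26 and MC38, although the last pair are labelled as carcinomas. Of 7 mesenchymal markers, 7 reached 1 TPM in CT26, 6 in B16, 5 in MC38, LLC and Pan02, and 2 in EG7 and WEHI3.

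Sdhaf4 (ENSMUSG00000026154) lies on the minus strand of chromosome 1, from 23995939 to 24005656 of GRCm38. Its coding transcript has 3 exons and a coding sequence of 312 bp. It shares 152 bp with Gm26524 on the opposite strand, which was at 0 to 0.17 TPM and above 0 in 4 of 42 libraries. The upstream windows of Sdhaf4 and of Sdha, the gene of the subunit its product binds, are shown because Sdhaf4 is the member that differed between the treatments in every line and Sdha was separated in none on the deposited values. Each is the 250 bases before the RefSeq start on GRCm38.p6, at chr1:24005641-24005890 and chr13:74350241-74350490, both on the minus strand. Capitals mark TGCGCA, the core letters of sites of the NRF1 type, which read the same on both strands.
Sdhaf4: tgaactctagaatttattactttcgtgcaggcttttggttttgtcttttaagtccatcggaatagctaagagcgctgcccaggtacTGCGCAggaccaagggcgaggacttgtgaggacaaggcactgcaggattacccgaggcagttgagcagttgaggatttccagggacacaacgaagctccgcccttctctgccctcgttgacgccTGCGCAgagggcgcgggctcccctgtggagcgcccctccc
Sdha: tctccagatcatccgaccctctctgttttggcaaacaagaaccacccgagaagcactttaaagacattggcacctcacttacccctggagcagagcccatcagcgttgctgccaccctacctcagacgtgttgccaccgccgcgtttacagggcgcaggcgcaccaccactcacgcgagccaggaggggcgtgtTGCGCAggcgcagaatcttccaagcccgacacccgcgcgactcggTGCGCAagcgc
The letters occurred 2 times in each window. Windows were found for 7 of the 8 members, Sdhc not among them, and TGCGCA stood in 4 of the 7 (Sdhaf4, Sdha, Sdhd and Sdhaf3), against 6.66% of 27025 mouse promoter windows. CCGGAAG, an ETS-type motif, occurred once each in Sdhaf2, Sdhaf3 and Sdhd and in 7.05% of all windows. CCAAT occurred once each in Sdhaf1, Sdha and Sdhb and in 34.5% of all windows, and CACGTG in none of the 7 and in 6.05%. Both strands were searched, none of these 4 motifs contains another, and a match describes letters only. GC content was 56.8% in the Sdhaf4 window and 61.6% in that of Sdha, against a median of 52% over all windows. It ran between 56.8% and 79.2% (Sdhaf2) in the 7 windows, and the shares over all windows were not matched for GC. The windows of Sdhaf1 and Sdhaf2 lie inside the spans given below for these genes.

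Sdhaf4 RNA was higher in RECTAS than in DMSO in each of the 7 lines. Its mean over the 7 line means was 43.9 TPM in RECTAS and 30.7 TPM in DMSO. The mean of the 7 within-line differences was 0.53 ± 0.025 (SE) on log2(TPM + 1), which ranked 12 among the rises of 8775 genes. As these are bulk samples, more cells with this RNA and more of it per cell, or fewer and less in DMSO, cannot be told apart. TPM per gene do not say which transcript isoform was present.

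In EG7 the 3 RECTAS libraries held 16.6, 17.0 and 19.6 TPM of Sdhaf4, against 11.7, 9.36 and 10.4 TPM in DMSO. In CT26 Sdhaf4 had 33.2, 28.6 and 30.7 TPM in RECTAS and 21.9, 21.6 and 20.3 TPM in DMSO. The MC38 libraries gave 34.6, 36.0 and 38.6 TPM in RECTAS and 25.8, 23.7 and 27.5 TPM in DMSO. In these 3 lines, which had the lowest DMSO levels, the highest DMSO library stayed under the lowest RECTAS library. Pan02 had 41.7, 42.4 and 45.6 TPM of Sdhaf4 in RECTAS and 28.1, 27.0 and 28.3 TPM in DMSO. In WEHI3 the values were 53.0, 56.4 and 53.0 TPM in RECTAS and 38.9, 41.7 and 39.1 TPM in DMSO. LLC had 56.9, 60.4 and 61.5 TPM in RECTAS against 39.4, 40.4 and 38.1 TPM in DMSO. The groups did not overlap in these lines either, with gaps wider than the spread of either group. B16, the line with the highest Sdhaf4, had 65.7, 67.3 and 62.2 TPM in RECTAS and 53.3, 50.4 and 47.9 TPM in DMSO. Every RECTAS library thus lay above every DMSO library in 7 of 7 lines. The same was true of 0.365% of the 8775 genes at 1 TPM or more in every line, and nothing is read from this because the contrast chose the gene.

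**Figure D1:**
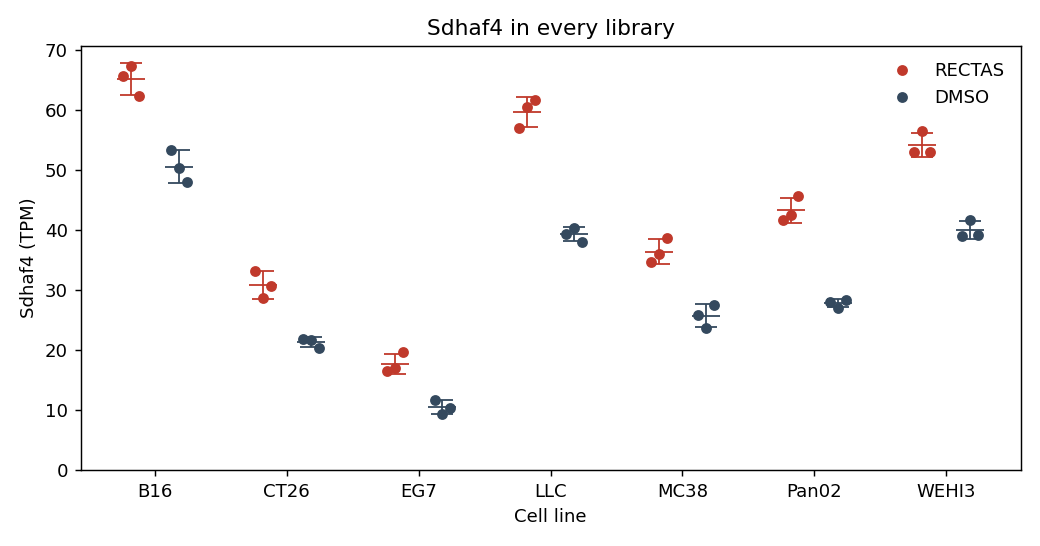
Sdhaf4 TPM (linear axis, from 0) in each library of the 7 lines, RECTAS left of DMSO, with lines and bars for the group mean and SD. The RECTAS libraries of each line sit above its DMSO libraries, and the lines differ more among themselves (10.5 to 50.5 TPM in DMSO) than the treatments do within a line.

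The size of the difference varied with the line. EG7 averaged 17.7 ± 1.66 TPM in RECTAS and 10.5 ± 1.20 TPM in DMSO (SD, n = 3 each), a ratio of 1.69. Its log2 difference of 0.71 ± 0.09 (SE) was the highest of the 7, and its gain of 7.24 TPM was the lowest. Ratios of 1.56 in Pan02 (43.2 ± 2.09 TPM in RECTAS, 27.8 ± 0.675 TPM in DMSO) and 1.52 in LLC (59.6 ± 2.42 TPM in RECTAS, 39.3 ± 1.16 TPM in DMSO) came next. LLC also had the largest gain, 20.3 TPM. CT26 averaged 30.8 ± 2.30 TPM in RECTAS and 21.3 ± 0.845 TPM in DMSO, a ratio of 1.45. MC38 averaged 36.4 ± 2.01 TPM in RECTAS and 25.7 ± 1.93 TPM in DMSO, a ratio of 1.42. WEHI3 had 54.1 ± 1.97 TPM in RECTAS and 39.9 ± 1.51 TPM in DMSO, a ratio of 1.36. B16 had the smallest ratio, 1.29, with 65.1 ± 2.61 TPM in RECTAS and 50.5 ± 2.71 TPM in DMSO. Its log2 difference was 0.36 ± 0.05 on the deposited TPM and 0.45 after the libraries were rescaled by their median ratio. On the rescaled values WEHI3 had the smallest difference, 0.44, and the 7 lines ran between 0.44 and 0.68. Whether the 7 differences of Sdhaf4 differ from each other was not tested, since the rule used them.

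The treatment did not level the lines. In RECTAS, EG7 at 16.6 to 19.6 TPM remained under the DMSO libraries of CT26 at 20.3 to 21.9 TPM. LLC in RECTAS, at 56.9 to 61.5 TPM, lay above B16 in DMSO, at 47.9 to 53.3 TPM. By group means, the order in RECTAS was B16, LLC, WEHI3, Pan02, MC38, CT26 and EG7, and in DMSO WEHI3 stood before LLC with the other places the same.

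The other 3 assembly factors showed differences of another size. Sdhaf2, whose product helps FAD attach to SDHA, averaged 41.6 TPM in RECTAS and 41.9 TPM in DMSO over the lines, a mean log2 difference of -0.01 ± 0.017 (SE). Its RECTAS and DMSO libraries overlapped in all 7 lines, and its line ratios ran between 0.969 and 1.02. Sdhaf2 (ENSMUSG00000024668, chromosome 19, 10500534 to 10526142, minus strand) shares 877 bp with Cpsf7 on the opposite strand. Cpsf7, a gene for a factor in mRNA 3′ end processing, was at 27.7 to 56.0 TPM. The strand setting of the counting is not given in the sources used here, so reads of this pair may not be told apart. The mean TPM of Cpsf7 was lower in RECTAS than in DMSO in all 7 lines, for example 48.5 ± 0.545 TPM in RECTAS and 55.2 ± 1.25 TPM in DMSO in MC38, and its part in the Sdhaf2 values was not tested.

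Sdhaf1, which acts on SDHB in other species, averaged 10.1 TPM in RECTAS and 9.76 TPM in DMSO, a mean log2 difference of 0.04 ± 0.019 (SE). Its lines went different ways. In EG7 it had 15.9, 14.8 and 14.8 TPM in RECTAS, against 14.2, 14.3 and 13.5 TPM in DMSO. In MC38 the values were 12.8, 12.2 and 12.8 TPM in RECTAS and 11.8, 11.0 and 12.2 TPM in DMSO. B16 gave 13.4, 13.5 and 13.2 TPM in RECTAS and 12.7, 13.2 and 11.6 TPM in DMSO. All RECTAS libraries lay above all DMSO libraries in these 3 lines, by differences of 0.09 to 0.11 on log2(TPM + 1). The groups nearly touched in B16, where the lowest RECTAS library had 13.18 TPM and the highest DMSO library 13.16 TPM. They did so in MC38 too, at 12.24 TPM in RECTAS and 12.20 TPM in DMSO. In CT26 the order was the other way, with 8.64, 8.81 and 8.31 TPM in RECTAS and 9.69, 9.85 and 9.38 TPM in DMSO, a difference of -0.15 ± 0.06 (SE). The groups overlapped in LLC, Pan02 and WEHI3. Sdhaf1 (ENSMUSG00000074211, chromosome 7, 30321406 to 30323895, minus strand, 1 exon) overlaps E130208F15Rik on the opposite strand by 1733 bp, and that gene is listed at 0 in all libraries.

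Sdhaf3, the other factor of SDHB maturation, was the scarcest member, at 2.47 TPM in RECTAS and 2.57 TPM in DMSO over the lines, with a mean log2 difference of 0.00 ± 0.039 (SE). B16 stood apart with 5.11, 5.06 and 4.55 TPM in RECTAS and 5.91, 6.44 and 5.90 TPM in DMSO, groups that did not overlap. The difference there was -0.26 ± 0.08 (SE), the largest of any member other than Sdhaf4 in any line. In the other 6 lines the RECTAS and DMSO libraries of Sdhaf3 overlapped. At these low levels the added 1 TPM makes a log2 difference understate the ratio, which was 0.807 in B16. Sdhaf3 (ENSMUSG00000042505) spans 6956004 to 7042979 of chromosome 6 on the plus strand and overlaps no annotated gene.

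Of the enzyme subunits, Sdha (ENSMUSG00000021577, chromosome 13, 74322254 to 74350280, minus strand, 15 exons) averaged 139 TPM in RECTAS and 143 TPM in DMSO. Its mean log2 difference was -0.03 ± 0.013 (SE), and the groups overlapped in all 7 lines. The pseudogene Gm16125, which shares 339 bp with Sdha on the opposite strand, was at 0 to 0.6 TPM. In B16 Sdha had 127, 116 and 126 TPM in RECTAS and 134, 139 and 126 TPM in DMSO, a difference of -0.11 ± 0.05 (SE), which was -0.016 after median-ratio scaling. In EG7 it had 241, 238 and 233 TPM in RECTAS and 240.4, 249.0 and 247 TPM in DMSO, and WEHI3 was the only line whose mean was higher in RECTAS, at 116 TPM, against 115 TPM in DMSO. After the libraries were rescaled by their median ratio, the RECTAS libraries of Sdha lay entirely under the DMSO libraries in CT26 and EG7. The share of all genes separated on rescaled values was not taken, so nothing is read from these separations.

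Sdhb (ENSMUSG00000009863, chromosome 4, 140961203 to 140979193, plus strand, 8 exons) averaged 214.9 TPM in RECTAS and 215.5 TPM in DMSO, a mean log2 difference of 0.00 ± 0.019 (SE). In B16 it had 219.5, 234.3 and 229.99 TPM in RECTAS, all above the 217, 207 and 212 TPM in DMSO. CT26 had 245, 260.2 and 255 TPM in RECTAS, all under the 266, 262 and 279.5 TPM in DMSO. Sdhc (ENSMUSG00000058076, chromosome 1, 171127165 to 171150603, minus strand, 6 exons), a membrane anchor, averaged 124 TPM in RECTAS and 123 TPM in DMSO, a mean log2 difference of 0.01 ± 0.017 (SE). Its libraries lay higher in RECTAS in B16, at 141 to 152 TPM against 133 to 139.7 TPM in DMSO, and lower in RECTAS in Pan02, at 94.0 to 96.0 TPM against 96.7 to 99.7 TPM in DMSO.

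Sdhd (ENSMUSG00000000171, chromosome 9, 50596357 to 50603812, minus strand, 4 exons), the other membrane anchor, averaged 246 TPM in RECTAS and 248 TPM in DMSO, a mean log2 difference of -0.01 ± 0.010 (SE). It followed Sdhc in the lines where groups did not overlap. In B16 it had 244.1 to 259 TPM in RECTAS and 240.9 to 243.7 TPM in DMSO, and in Pan02 230.2 to 233.5 TPM in RECTAS and 234.2 to 243 TPM in DMSO. The gaps between the groups were small beside their own spread. After median-ratio scaling the separations in CT26 for Sdhb and in Pan02 for Sdhc and Sdhd ended, and a separation below DMSO appeared for Sdhd in EG7. Those above DMSO in B16 stayed, with larger differences there of 0.20 for Sdhb, 0.20 for Sdhc and 0.15 for Sdhd. No share of all genes separated on the scaled values stands beside these.

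All 8 members passed the filter of 1 TPM in every line. In the fit of the mean over lines, 1 of the 8 members, Sdhaf4, was called higher, where 25.8% of the 8775 genes were called (9.86% higher and 15.9% lower). This count is a description, since the contrast chose the members, and nothing is read from it. The 49 line differences of the other 7 members ran between -0.26 and 0.12, with a median absolute value of 0.03, while those of Sdhaf4 ran between 0.36 and 0.71. The 28 differences of the 4 subunits lay between -0.11 and 0.11 on the deposited values, and between -0.13 (Sdhb) and 0.20 (Sdhc) after median-ratio scaling. Among the 49, all RECTAS libraries lay above all DMSO libraries in 6 (12.2%) and below in 5 (10.2%), shares near those of all genes at 1 TPM in a line, 10.1% above and 14.2% below. Of all genes at 1 TPM in the line, the share separated above DMSO was 8.37% in B16, 15% in CT26, 14.9% in EG7, 3.92% in LLC, 11% in MC38, 10.4% in Pan02 and 7.59% in WEHI3. The share separated below DMSO was 26.5% in B16, 12.5% in CT26, 11.1% in EG7, 9.27% in LLC, 11.4% in MC38, 13.4% in Pan02 and 15.1% in WEHI3. B16 supplied 4 of the 6 member separations above DMSO, those of Sdhaf1, Sdhb, Sdhc and Sdhd, and 1 of the 5 below, that of Sdhaf3.

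**Figure D2:**
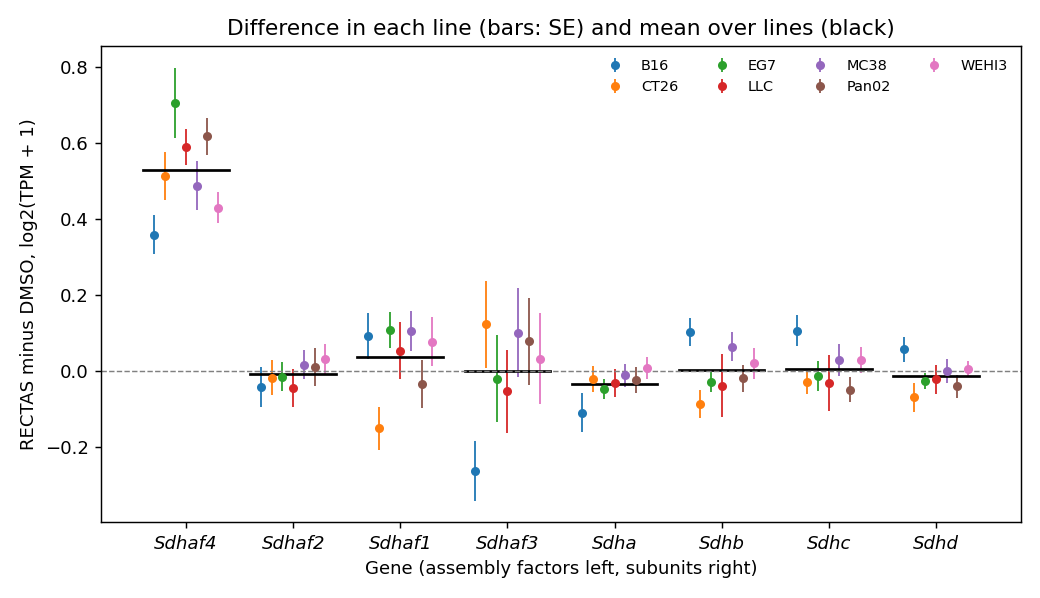
Difference between RECTAS and DMSO on log2(TPM + 1) for each of the 8 genes in each line, with SE bars and a black line for the mean over the lines. Sdhaf4 lies at 0.36 to 0.71 in the 7 lines, and the other 7 genes lie between -0.26 and 0.12.

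The amount of Sdhaf4 RNA beside that of Sdha, its partner's gene, was taken in each library as a percentage of the Sdha TPM. In B16 it was 53.0% ± 4.41 in RECTAS and 38.1% ± 1.73 in DMSO (SD, n = 3 each). LLC had 50.1% ± 2.43 in RECTAS and 32.3% ± 1.82 in DMSO, and WEHI3 46.8% ± 2.16 in RECTAS and 34.7% ± 1.68 in DMSO. These 3 lines held the most Sdhaf4 RNA for each unit of Sdha RNA under either treatment. MC38 had 36.2% ± 1.98 in RECTAS and 25.3% ± 1.26 in DMSO. Pan02 gave 28.3% ± 2.10 in RECTAS and 17.9% ± 0.242 in DMSO, and CT26 24.4% ± 1.11 in RECTAS and 16.6% ± 0.497 in DMSO. EG7 was far below the rest, with 7.48% ± 0.832 in RECTAS and 4.28% ± 0.568 in DMSO. The percentage was higher in RECTAS in all 7 lines, as follows from the Sdhaf4 values that chose the gene.

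**Figure D3:**
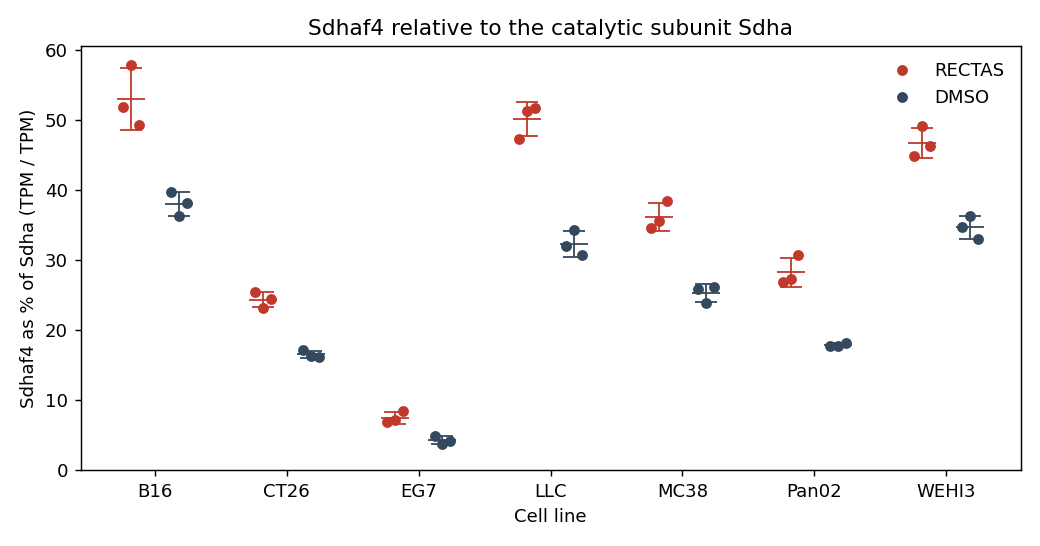
Sdhaf4 TPM as a percentage of Sdha TPM in each library, RECTAS left of DMSO in each line, with lines and bars for the group mean and SD. The percentage spans 7.48% to 53.0% among RECTAS means and 4.28% to 38.1% among DMSO means, with EG7 lowest and B16 highest in both.

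Levels in DMSO differed between the lines for all 8 genes. The limma F-test over 21 DMSO libraries called 8 of 8 members, beside 97.3% of the 16108 genes tested, so a call by itself is ordinary in these data. Of the 168 comparisons of a member between a pair of lines, 141 (83.9%) were called by limma, beside 72.9% over all genes and pairs and 67.8% to 77% in single pairs. CT26 and MC38 were grown in RPMI-1640 and the other lines in DMEM, so line and medium cannot be told apart where CT26 or MC38 is set against a DMEM line. WEHI3 medium also held 2-mercaptoethanol.

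Sdhaf4 was highest in B16 and lowest in EG7, a 4.82-fold range (limma F-test, adjusted p = 1.72e-14). B16 exceeded WEHI3, the next line, by 0.33 on log2(TPM + 1) (limma, adjusted p = 0.000175). WEHI3 at 39.9 TPM and LLC at 39.3 TPM did not differ beyond their spread (adjusted p = 0.791), and LLC exceeded Pan02 by 0.48 (adjusted p = 3.71e-06). Pan02 at 27.8 TPM and MC38 at 25.7 TPM were not told apart (adjusted p = 0.140). MC38 exceeded CT26, the other colon line, by 0.26 (adjusted p = 0.00194). The step of CT26 over EG7 was the largest, 0.96 (adjusted p = 2.88e-10), and each of these contrasts had an SE of 0.07. After median-ratio scaling B16 over WEHI3 was 0.16 (adjusted p = 0.0735) and MC38 over CT26 was 0.15 (adjusted p = 0.0800), so neither step was told apart, while Pan02 over MC38 was 0.18 (adjusted p = 0.0462).

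EG7 was the line with the least Sdhaf4 and also the line with the most Sdha, Sdhb, Sdhd and Sdhaf1. Sdha had 245 TPM in EG7, above the 156 TPM of Pan02 (difference 0.65, limma adjusted p = 1.33e-11), which in turn exceeded B16 at 133 TPM (adjusted p = 2.01e-05). B16, CT26, LLC and WEHI3 followed at 133 to 115 TPM with no neighbours told apart, and MC38 was lowest at 101.3 TPM. Sdha in CT26 over LLC was told apart after median-ratio scaling (0.19, limma adjusted p = 0.000259) and in the RECTAS libraries (0.09, adjusted p = 0.0190). Sdhb had 356 TPM in EG7, 269 TPM in CT26 and 141 TPM in WEHI3, the lowest, and of its 6 neighbouring steps only B16 at 212 TPM over LLC at 208 TPM was not told apart (adjusted p = 0.598). After median-ratio scaling the steps of Sdhb in MC38 over Pan02 (0.08, limma adjusted p = 0.318) and Pan02 over WEHI3 (0.12, adjusted p = 0.148) were not told apart either, and in the RECTAS libraries Pan02 over WEHI3 was not (0.08, adjusted p = 0.176). Sdhb in B16 over LLC was told apart in the RECTAS libraries (0.17, adjusted p = 0.00779).

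The 2 membrane anchors differed in their range over the lines. Sdhc was the most even member, with a 1.46-fold range (limma F-test, adjusted p = 4.54e-07), and 1 of its 6 neighbouring steps was told apart, CT26 at 116 TPM over Pan02 at 98.4 TPM. Sdhd covered a 2.59-fold range, with 371 TPM in EG7, 286 TPM in WEHI3 and 143 TPM in LLC (adjusted p = 8.73e-16). As a result the ratio of Sdhd to Sdhc TPM in DMSO ran between 2.99 ± 0.113 in EG7 and 1.003 ± 0.0692 in LLC (SD, n = 3 each). The ratio of Sdhb to Sdha ran between 2.10 ± 0.126 in CT26 and 0.983 ± 0.0237 in Pan02. RNA of the subunits was thus not held in 1 proportion across the lines.

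Among the other assembly factors, Sdhaf2 was highest in Pan02 at 53.0 TPM and lowest in B16 at 27.9 TPM, the line with the most Sdhaf4 (1.90-fold, limma F-test, adjusted p = 1.03e-10). Sdhaf1 ran between 13.99 TPM in EG7 and 5.18 TPM in LLC (2.70-fold, adjusted p = 1.62e-12). Sdhaf3 reached 6.08 TPM in B16, where the next line, LLC, had 2.73 TPM (difference 0.93, adjusted p = 6.91e-07), and was lowest in CT26 at 1.20 TPM. The ratio of Sdhaf4 to Sdhaf2 TPM in DMSO was 1.82 ± 0.184 in B16 and 0.261 ± 0.0374 in EG7 (SD, n = 3 each), so which of the pair was more abundant depended on the line.

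**Figure D4:**
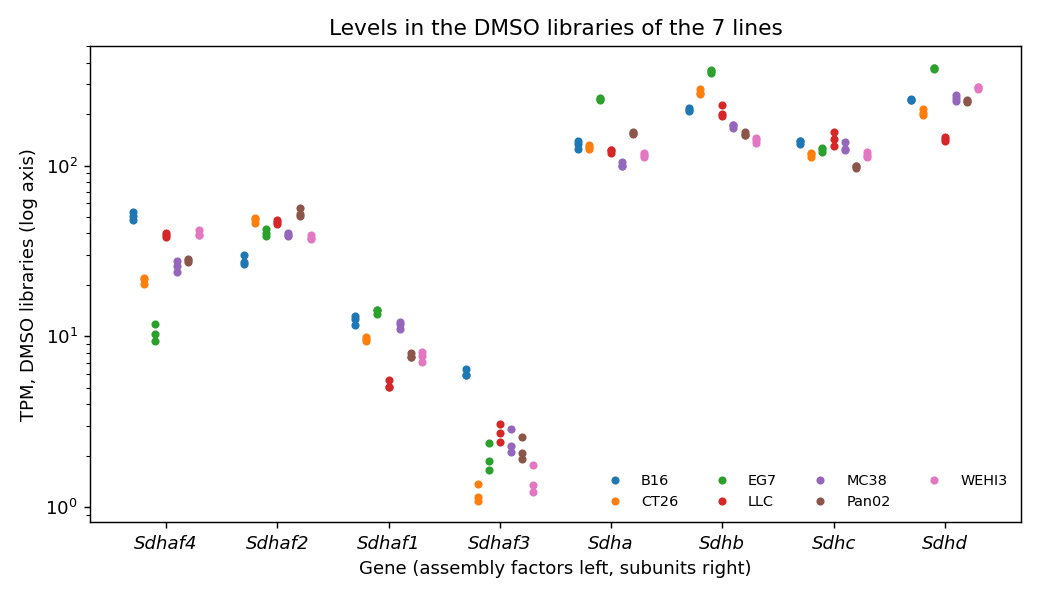
DMSO levels of the 8 genes in the 7 lines (TPM, log axis), with a point for each library and a colour for each line. EG7 has the highest Sdha, Sdhb, Sdhd and Sdhaf1 and the lowest Sdhaf4 (10.5 TPM), and Sdhc varies least between lines.

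Of the 48 neighbouring steps of the 8 genes, 26 were told apart in DMSO. No share over all genes was taken for such steps, here or in the settings below. The 72.9% given above is for all 21 pairs of lines, whereas neighbours are the closest lines in a gene's own order. In the RECTAS libraries 33 of the 48 were told apart, and 25 of the 26 called in DMSO were again called in the same order. These libraries come from the same lines, so the shared calls are no independent repeat of the DMSO order. The choice of Sdhaf4 used its RECTAS values, so nothing is read from its steps in those libraries. Newly called in the RECTAS libraries, in the DMSO order, were Sdhaf4 in Pan02 over MC38, Sdhaf3 in Pan02 over EG7 and Sdha in CT26 over LLC. The same held for Sdhb in B16 over LLC, Sdhc in B16 over MC38 and MC38 over EG7, and Sdhd in B16 over Pan02. A further step not told apart in DMSO, Sdhaf1 in Pan02 and WEHI3, was called in the opposite order. Median-ratio scaling kept 21 of the 26, the other 5 being the steps named above for Sdhaf4 and Sdhb and that of Sdhaf2 in Pan02 over CT26 (0.10, limma adjusted p = 0.0905). It called the steps of Sdha in B16 and CT26 and of Sdhd in B16 and Pan02 in the opposite order, neither of which was told apart on the deposited values. This scaling called 27 steps in all. Newly called in the deposited order were Sdhaf4 in Pan02 over MC38, Sdhaf2 and Sdha in CT26 over LLC, and Sdhd in MC38 over B16.

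Pearson correlations with Sdhaf4 over the 7 DMSO line means were -0.715 for Sdha, -0.685 for Sdhb, -0.538 for Sdhd, -0.481 for Sdhaf1, -0.367 for Sdhaf2, 0.262 for Sdhc and 0.511 for Sdhaf3. They describe 7 points, among which EG7 has the lowest Sdhaf4 and the highest Sdha, Sdhb and Sdhd. Among 8774 genes, the 5 with a pattern over the 7 means most like that of Sdhaf4 were Mtpn (r = 0.993), Ggcx (0.981), Zfp617 (0.974), Asna1 (0.967) and Umad1 (0.967). Zfp617 overlaps Zfp882, and Umad1 overlaps Gm45062, on the same strand, so their values are uncertain. Over the 42 libraries with line means removed, the 5 most like it were Phf7 (r = 0.926), Tbc1d32 (0.925), Pcyox1l (0.923), H2bc4 (0.920) and Sat1 (0.914). All 42 points share the contrast of RECTAS with DMSO, on which Sdhaf4 was chosen. By the same measure the other members lay between -0.372 for Sdha and 0.301 for Sdhaf1.

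Genes around the enzyme were grouped in 8 lists, and the RECTAS contrast was tested on them with limma over 8775 genes, of which 9.86% were called higher and 15.9% lower, with a median difference of 0.00. The F-test for a response that differed between lines called 3 of the 114 list genes tested, beside 3.07% of all genes. Genes called for the mean over lines were lower in 61.7% of cases on the deposited values and in 49.9% after median-ratio scaling. The pyruvate dehydrogenase and citric acid cycle list held 18 genes, of which 17 were tested, 7 fell and 10 did not pass, with a median log2 difference of -0.02. Scaled by median ratio, 3 fell. Dlst, a subunit of the 2-oxoglutarate dehydrogenase complex upstream of SDH, fell by 0.11 ± 0.011 (SE) and was lower in 7 of 7 lines (adjusted p = 3.37e-09). Fh1, the fumarase that takes the product of SDH, fell by 0.11 ± 0.019 and was lower in 6 of 7 lines (adjusted p = 3.84e-05). Ogdh, the partner of Dlst, fell by 0.08 ± 0.016 (adjusted p = 0.000126).

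Assembly factors of the other respiratory complexes moved in both directions, 6 of 41 tested genes higher and 5 lower, with a median difference of 0.01. Bcs1l, which inserts the iron-sulphur protein into complex III, fell by 0.35 ± 0.019 (SE) and was lower in 7 of 7 lines (limma, adjusted p = 3.05e-16). Timmdc1, a complex I assembly factor, rose by 0.20 ± 0.015 and was higher in 7 of 7 lines (adjusted p = 8.97e-13). Surf1, a complex IV assembly factor that shares 164 bp with the antisense gene Surf2, fell by 0.20 ± 0.024 and was lower in 7 of 7 lines (adjusted p = 9.34e-08).

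Among 19 genes of mitochondrial iron-sulphur cluster assembly, which supplies SDHB, 1 rose and 3 fell, with a median of 0.01. Iscu, the scaffold protein, rose by 0.15 ± 0.019 (SE) and was higher in 7 of 7 lines (limma, adjusted p = 2.79e-07). Nfu1, a late-acting carrier of clusters, fell by 0.08 ± 0.018 (adjusted p = 0.000735) and was lower in 5 of 7 lines. Slc25a28, an iron transporter, fell by 0.08 ± 0.020 (adjusted p = 0.00384) and was lower in 6 of 7 lines. None of the 4 tested genes of riboflavin and FAD supply passed in limma, and 0 did so at an unadjusted p under 0.05. Slc52a2, a riboflavin transporter, had a difference of -0.02 (adjusted p = 0.360), Flad1, the FAD synthase, 0.03 (adjusted p = 0.523) and Slc25a32, the mitochondrial carrier, -0.02 (adjusted p = 0.550).

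Coenzyme Q synthesis, which makes the electron acceptor of SDH, had 2 genes higher and 3 lower of 12 tested, with a median of -0.02. Coq3 fell by 0.12 ± 0.017 (SE, adjusted p = 6.97e-07) and Coq10a, a coenzyme Q binding protein, by 0.17 ± 0.028 (adjusted p = 1.68e-05), by limma on the mean over lines, and the line means of both were lower in 7 of 7 lines. Coq5, a methyltransferase that overlaps the antisense pseudogene Gm13829, fell by 0.07 ± 0.015 (adjusted p = 0.000604). Of 8 haem synthesis genes, 5 fell and 1 rose, with a median of -0.07, and 3 fell after median-ratio scaling. Fech, the last enzyme of the pathway, fell by 0.14 ± 0.020 (SE) and was lower in 7 of 7 lines (limma, adjusted p = 3.38e-06). Uros rose by 0.13 ± 0.023 (adjusted p = 8.45e-05) and was higher in 7 of 7 lines, in EG7 by only 0.0045. It shares 740 bp with the antisense gene Bccip, which was at 109 TPM.

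In the list of a chaperone, deacylases and proteases, 3 of 7 tested genes fell and 1 rose, while the median of 0.01 was above 0. Trap1, a mitochondrial HSP90 known to bind SDH, fell by 0.09 ± 0.010 (SE, limma adjusted p = 3.31e-08) and was lower in 6 of 7 lines. Lonp1, a matrix protease, fell by 0.06 ± 0.015 (adjusted p = 0.00147), and Clpx, the unfoldase of another matrix protease, rose by 0.09 ± 0.023 (adjusted p = 0.00277). Of the succinate sources, carriers and sensors, 6 of 12 genes were tested and 1 passed. Oxct1, which uses succinyl-CoA in ketone breakdown, fell by 0.07 ± 0.019 (limma adjusted p = 0.00875) and was lower in 5 of 7 lines. Its adjusted p was 0.0549 without the Pan02 libraries. The oxygen sensor Egln2 had a difference of 0.04 (adjusted p = 0.189) and Hif1a one of -0.04 (adjusted p = 0.408).

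**Figure D5:**
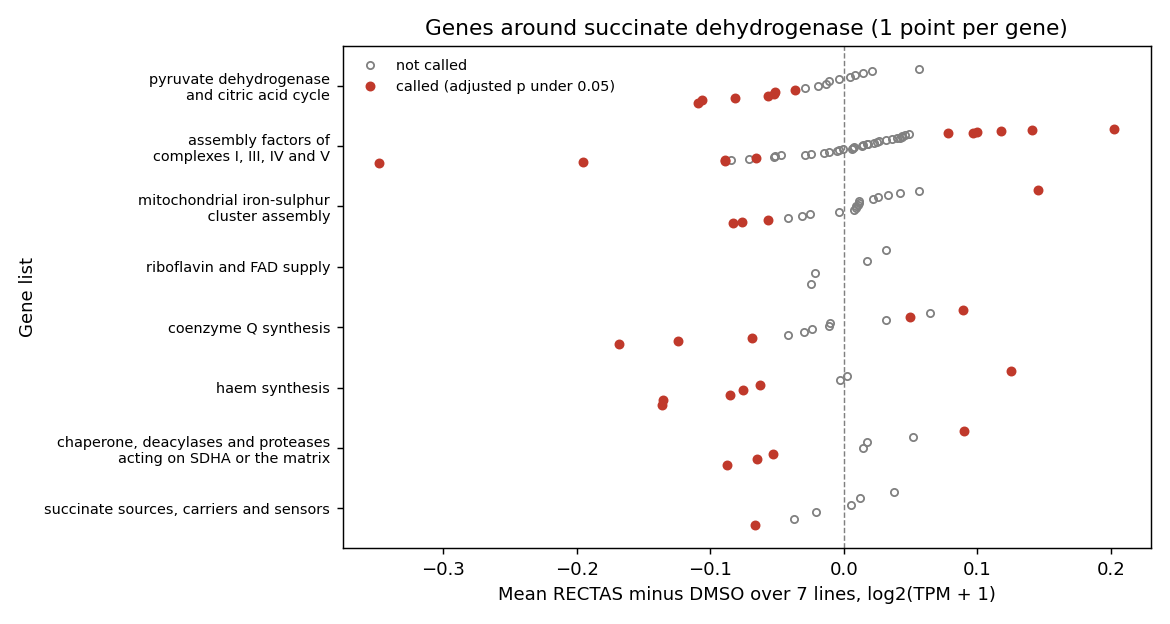
Mean difference between RECTAS and DMSO over the 7 lines on log2(TPM + 1) for each tested gene of the 8 lists, with 1 point per gene, filled where limma called it. The points lie between -0.35 (Bcs1l) and 0.20 (Timmdc1), and filled points stand on both sides of 0 in 5 of the 8 lists.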

How the data were processed

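The 42 libraries were prepared with the TruSeq stranded mRNA kit, per the labels' protocols. RSEM 1.3.0, HISAT2 2.2.0 and GRCm38 are named, per the submitters' processing notes, without their roles. Annotation, strand setting and filters were not given in the sources used here. Per gene, the deposited files give TPM for each library, made by the authors from their reads, and no 2 libraries of a group held identical values.

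Gene IDs were matched to GENCODE M21 on GRCm38 (55141 IDs, 99.5%). Promoter windows came from RefSeq (GRCm38.p6). Values were analysed as log2(TPM + 1), on which the fold change of a scarce gene is understated. Two-sided tests in limma 3.58.1 (R 4.3.3) used moderated variances and an intensity trend, and a Benjamini-Hochberg adjusted p under 0.05 was called. The RECTAS contrast over lines used all 42 libraries, 14 group means and those genes whose mean reached 1 TPM in every line. Single lines were fitted on their own 6 libraries. Baselines were fitted on the 21 DMSO libraries, for genes whose mean reached 1 TPM in any line.

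The 8 genes and the 8 lists were chosen with earlier results of these data known. Named beside the members are the 3 list genes with the smallest p in each list (1 of them is not reported here), the genes that overlap a member, and the 5 most like Sdhaf4 by each of 2 measures. List genes under 1 TPM in some line were not tested: Idh2, Pet117, Slc52a3, Coq8a, Sirt5, Aldh5a1, Abat, Acod1, Slc13a3, Sucnr1 and Egln3. The fitting code was tested on simulated data. The alternatives were a pseudocount of 0.1, no filter, a filter at 5 TPM, median-ratio scaling, no intensity trend, a replicate block, and leaving out each library or line.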

Additional observations from a re-analysis of the deposited data

Results flagged for a closer look

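In several cases all RECTAS libraries lay above all DMSO libraries in 1 line and below them in another, and these opposite differences between lines were not tested. Sdhaf1 differed by 0.093 in B16, 0.109 in EG7 and 0.106 in MC38, and by -0.150 in CT26, on log2(TPM + 1). Sdhb differed by 0.103 in B16 and by -0.087 in CT26. Sdhc differed by 0.107 in B16 and -0.049 in Pan02, and Sdhd by 0.057 in B16 and -0.040 in Pan02. In B16 the median difference of all genes was -0.06 on the deposited values and 0.02 after median-ratio scaling. The separations of Sdhb in CT26 and of Sdhc and Sdhd in Pan02 ended under that scaling. The lines in which Sdhaf1 was separated were the same, and no share over all genes was taken on the scaled values. The scaled differences in B16 were 0.179 for Sdhaf1, 0.197 for Sdhb, 0.20 for Sdhc and 0.151 for Sdhd.

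Of 114 tested list genes, 3 had responses that differed between the 7 lines by the limma F-test, beside 3.07% of all genes. Trap1 (adjusted p = 0.0457) ran between -0.17 in CT26 and 0.01 in B16. The other pair fall outside the naming rule and are named because of their values. Uqcc1, a complex III assembly factor, was higher only in B16, by 0.14, and lowest in CT26, at -0.25 (adjusted p = 0.0326). Coq2, an enzyme of coenzyme Q synthesis, was at -0.10 in CT26 and -0.11 in WEHI3 and at 0.08 to 0.16 in the other 5 lines (adjusted p = 0.00806). The number of such genes fell to 1 without B16, CT26 or MC38.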

How the results depend on the processing

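The mean difference of Sdhaf4 stayed between 0.50 and 0.56 under the alternatives and between 0.52 and 0.54 without single libraries. In B16 it was 0.36 as reported and 0.45 under median-ratio scaling. Without single libraries the lines gave 0.32 to 0.40 in B16, 0.46 to 0.56 in CT26, 0.63 to 0.78 in EG7, 0.57 to 0.62 in LLC, 0.43 to 0.54 in MC38, 0.58 to 0.64 in Pan02 and 0.40 to 0.46 in WEHI3. Among the other 7 members, 0 were called by limma over the lines, beside 25.8% of the 8775 genes. Of the 7, 1, Sdha, had an unadjusted p under 0.05, for which no share over all genes was taken. These counts describe the contrast which chose these genes and are no test of them. With the filter at 5 TPM or without WEHI3 1 was called (Sdha), without CT26 1 (Sdhaf1), and without single libraries 0 to 1. In the last case the gene was always Sdha, called on leaving out certain libraries of each of the 7 lines. No share over all genes was set beside the member calls in these settings, and nothing is read from them either. List genes with a response that differed between lines numbered 3 as reported, 6 with no filter, 10 without LLC, 1 without B16, CT26 or MC38, and 1 to 5 without single libraries (5 without the second DMSO library of LLC). The number of genes called over the lines was 2261, and it ran between 1883 and 3016 under the alternatives. List counts moved by at most 2 genes, except that the citric acid cycle list had 3 to 7 genes lower. Of the named list genes that were called, Oxct1 lost its call, without Pan02. Coq3 did not pass the filter at 5 TPM and was not tested there, and the other calls were kept. The 8 members stayed called at baseline throughout, and neighbouring steps told apart numbered 24 to 33.

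Replicate numbers did not pair the libraries in most lines, and 12 of 42 libraries correlated best with their own number. Of 21 pairs 2 correlated above 0.1, both in LLC, at 0.286 for replicate 2 and 0.151 for replicate 3. The LLC libraries may thus be paired, which the main fits did not use. With a replicate block 2353 genes were called. TPM without counts leave the precision of the low values of Sdhaf3 unknown.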
